A study of Mus musculus with 24 samples.

Results

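Expression of 32 cholesterol and fatty acid synthesis genes was followed in mouse liver ductal cells (DCs), liver stroma and their cultures. The genes were chosen by name, as the enzymes that build cholesterol and fatty acids, the regulators that sense sterols and the liver X receptors (LXRs). All 32 were found by symbol among the 49568 genes listed in each of the 2 expression tables, and all 32 passed the filter on low values in both experiments.

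Cholesterol is made from acetyl-CoA. The mevalonate steps join acetyl-CoA into farnesyl diphosphate, and squalene, lanosterol and a series of sterol intermediates follow. SREBP2, the product of Srebf2, drives the transcription of these enzymes when sterols in the endoplasmic reticulum run low, while SREBP1, the product of Srebf1, acts more on fatty acid genes; the INSIG proteins hold their escort SCAP back when sterols are plentiful. LXRs are nuclear receptors that respond to oxysterols. In the liver, hepatocytes and cholangiocytes both make cholesterol, and hepatocytes turn it into bile acids that cholangiocytes then meet in the bile.

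The homeostasis experiment holds 12 samples of freshly sorted cells from 3 mice, A and E (male) and F (female), aged 12 weeks, on a C57BL/6 background. Each mouse was heterozygous for B6.129S4-Pdgfratm11(EGFP)Sor/J, an allele in which the Pdgfra gene drives a nuclear GFP, so that PDGFRα+ cells were sorted by GFP in place of an antibody. From each mouse came EpCAM+ DCs, PDGFRα+ cells with SCA1 (PDGFRα+SCA1+) or without it (PDGFRα+SCA1-), and cells with SCA1 only (PDGFRα-SCA1+), all negative for CD11b, CD45 and CD31. The transwell experiment holds 12 samples from wild-type C57BL/6 mice of 8 to 12 weeks, 2 per group. These are EpCAM+ DCs at day 0, organoids grown from DCs for 15 days in expansion medium (EM), organoids grown for 15 days across a transwell membrane from SCA1+ mesenchymal cells (SCA1+Msc), SCA1+Msc at day 0, SCA1+Msc cultured alone for 15 days and SCA1+Msc co-cultured for 15 days with DCs. In this experiment SCA1+Msc were sorted on SCA1 without PDGFRα. The methods describe expanding SCA1+Msc on the plate before DCs were added for the 15 days. Co-cultured SCA1+Msc were thus more than 15 days from sorting, and their change from day 0 includes that expansion. EM carries growth factors such as EGF, HGF and FGF10, and the methods describe co-culture in medium without them. The paper gives WNT3A as a supplement of that co-culture medium, and in its results also serum. The medium and the presence of SCA1+Msc thus change together and cannot be told apart. The mice of the homeostasis experiment are separate animals, and for the transwell the methods name a pair of littermates as the source of the SCA1+Msc and another pair as that of the DCs. The labels do not say that the 2 transwell samples of a group came from separate mice or cultures, so the p-values there measure the spread between these samples, which may be partly technical.

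Depth, recovered from the step size of low values, ran from 19.6 to 25.7 M reads in the sorted fractions and from 19.3 to 28.1 M in the transwell samples. The ductal list (Epcam, Krt19, Krt7, Sox9 and Spp1) summed to 54236 to 74150.0 in sorted DCs, and the mesenchymal list (Pdgfra, Pdgfrb, Col1a1, Col1a2 and Col3a1) to 3846 to 4541 in PDGFRα+SCA1+ and 4704 to 5188 in the SCA1- fraction. Cells sorted as PDGFRα-SCA1+ held little mesenchymal signal (16.8 to 64.2) and high levels of the endothelial list Pecam1, Cdh5, Kdr and Flt4 (1641 to 1758) although CD31+ cells had been gated out. Their mouse E library also reached 3706 for the ductal list. Without it the median log2 difference of the 32 genes between these cells and DCs was -2.38, against -2.16 with it, and the calls of Hsd17b7, Nsdhl, Scd1 and Scd2 described below were lost. SCA1+Msc at day 0 of the transwell held much hepatocyte signal, given with their results.

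To show what the promoters of the 32 genes hold, whichever way they moved, RefSeq windows were searched for 3 motifs on both strands. A window spans 250 bases before to 50 after a start site (GRCm38.p6). Of the 32 genes 26 have a window; Fdft1, Fdps, Scd1, Scd2, Sqle and Stard4 were not in the table. CCAAT, the box read by NF-Y, was found in 20 of the 26 (76.9%) and in 42.0% of the 11757 genes with a window that were tested in the transwell experiment. GGGCGG, the Sp1 box, was likewise found in 20 of 26, against 64.3% of those 11757 genes. TCACNCCAC, the core of the sterol regulatory element, was found in 1 of 26 (3.85%), against 1.44% of those genes. No match of 1 motif overlapped a match of another in these windows. The windows of 5 genes are shown: the 4 genes with a window that differed most between co-cultured and EM organoids, and Acly, the member that differed in the opposite direction. They are written 5′ to 3′ on the gene's strand, with matches of CCAAT or its reverse complement ATTGG, and of the sterol regulatory element core, in capitals.
Cyp51, chr5:4104648-4104947, minus strand: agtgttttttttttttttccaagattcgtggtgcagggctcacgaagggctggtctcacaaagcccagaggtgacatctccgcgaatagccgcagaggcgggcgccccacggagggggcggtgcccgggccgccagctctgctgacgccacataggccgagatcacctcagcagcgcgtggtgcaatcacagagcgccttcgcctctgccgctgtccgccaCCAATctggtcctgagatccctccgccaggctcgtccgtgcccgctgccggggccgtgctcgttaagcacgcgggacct
Hsd17b7, chr1:169969156-169969455, minus strand: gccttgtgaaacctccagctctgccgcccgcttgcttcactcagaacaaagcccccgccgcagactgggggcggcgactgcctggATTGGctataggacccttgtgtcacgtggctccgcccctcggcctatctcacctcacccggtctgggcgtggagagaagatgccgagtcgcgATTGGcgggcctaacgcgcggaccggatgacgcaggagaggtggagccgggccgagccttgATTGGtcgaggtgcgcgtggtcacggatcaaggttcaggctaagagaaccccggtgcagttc
Hmgcs1, chr13:119690101-119690400, plus strand: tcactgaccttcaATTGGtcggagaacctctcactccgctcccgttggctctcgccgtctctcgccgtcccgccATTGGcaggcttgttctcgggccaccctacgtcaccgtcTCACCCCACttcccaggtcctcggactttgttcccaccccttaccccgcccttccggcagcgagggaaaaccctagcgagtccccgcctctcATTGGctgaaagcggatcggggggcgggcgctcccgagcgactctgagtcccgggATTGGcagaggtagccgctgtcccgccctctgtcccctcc
Msmo1, chr8:64733529-64733828, minus strand: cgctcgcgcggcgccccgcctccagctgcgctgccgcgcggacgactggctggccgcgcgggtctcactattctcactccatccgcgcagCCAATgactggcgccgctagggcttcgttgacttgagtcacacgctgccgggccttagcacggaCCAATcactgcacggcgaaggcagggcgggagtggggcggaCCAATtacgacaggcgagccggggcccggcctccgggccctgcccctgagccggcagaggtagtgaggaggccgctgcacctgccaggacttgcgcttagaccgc
Acly, chr11:100527951-100528250, minus strand: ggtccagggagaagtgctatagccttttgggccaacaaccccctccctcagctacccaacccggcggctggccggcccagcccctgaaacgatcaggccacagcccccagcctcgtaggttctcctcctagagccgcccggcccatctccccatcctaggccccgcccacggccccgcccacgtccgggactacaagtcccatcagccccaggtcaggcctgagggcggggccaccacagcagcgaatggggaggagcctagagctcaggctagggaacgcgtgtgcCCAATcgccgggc
Hmgcs1 held 4 CCAAT boxes and the single sterol regulatory element core (TCACCCCAC), which starts at position -137 from the start site. Hsd17b7 and Msmo1 held 3 boxes each, and Cyp51 and Acly held 1 each, that of Acly lying after the start site. A match describes letters only, and binding was not measured.

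In the healthy liver, RNA of the sterol pathway was higher in DCs than in the stromal fractions. Of the 32 genes, 26 had their highest mean in DCs, beside 34.4% of all genes tested, and for 21 every DC sample lay above every stromal sample, beside 13.0% of all genes. PDGFRα+SCA1+ cells had 17 genes lower and 0 higher than DCs (limma, Benjamini-Hochberg adjusted p under 0.05), beside 14.0% lower and 9.85% higher among all 17028 genes tested. PDGFRα+SCA1- cells had 20 lower and 0 higher, beside 18.9% and 9.98% of all genes. PDGFRα-SCA1+ cells had 17 lower and 1 higher, beside 11.3% and 11.5%, and 15 lower and 0 higher without the mouse E library. Of the 32 genes, 12 were lower in all 3 fractions and 23 in at least 1, beside 6.47% and 24.3% of all genes. The median log2 difference of the 32 genes was -2.25, -2.40 and -2.16 in that order, beside -0.28, -0.47 and -0.04 for all genes. Differences are given throughout on the log2(value + 1) scale, which understates those of genes at low levels. Of the calls, 10 of 17, 17 of 20 and 12 of 18 were not lost under any alternative processing in which the gene was tested. In these bulk samples, fewer cells that express a gene and less RNA per cell cannot be told apart.

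Summed over the 18 enzymes from acetyl-CoA to cholesterol, the level ran from 2965 to 3649 in the 3 DC samples. Among PDGFRα+ cells the sum was 298 to 473 with SCA1 and 312 to 398 without it. PDGFRα-SCA1+ cells had 241 to 497, so that no stromal sample came near a DC sample. The 8 hepatocyte markers (Alb, Ahsg, Fgb, Cps1, Cyp2e1, Apoa2, Hpx and Tat) summed to 5548 to 6673 in DCs, while PDGFRα+ cells had 1026 to 2595 with SCA1 and 918 to 1659.5 without it, and PDGFRα-SCA1+ cells had 2424 to 6462, a range that overlaps that of DCs. The single markers did not all follow the sum: 1 of 8 (Cyp2e1) was called higher and 2 (Alb and Ahsg) lower than in DCs in each PDGFRα+ fraction, and 1 (Apoa2) higher and 0 lower in PDGFRα-SCA1+ cells. The part of hepatocyte RNA in the difference was not tested.

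**Figure D1:**
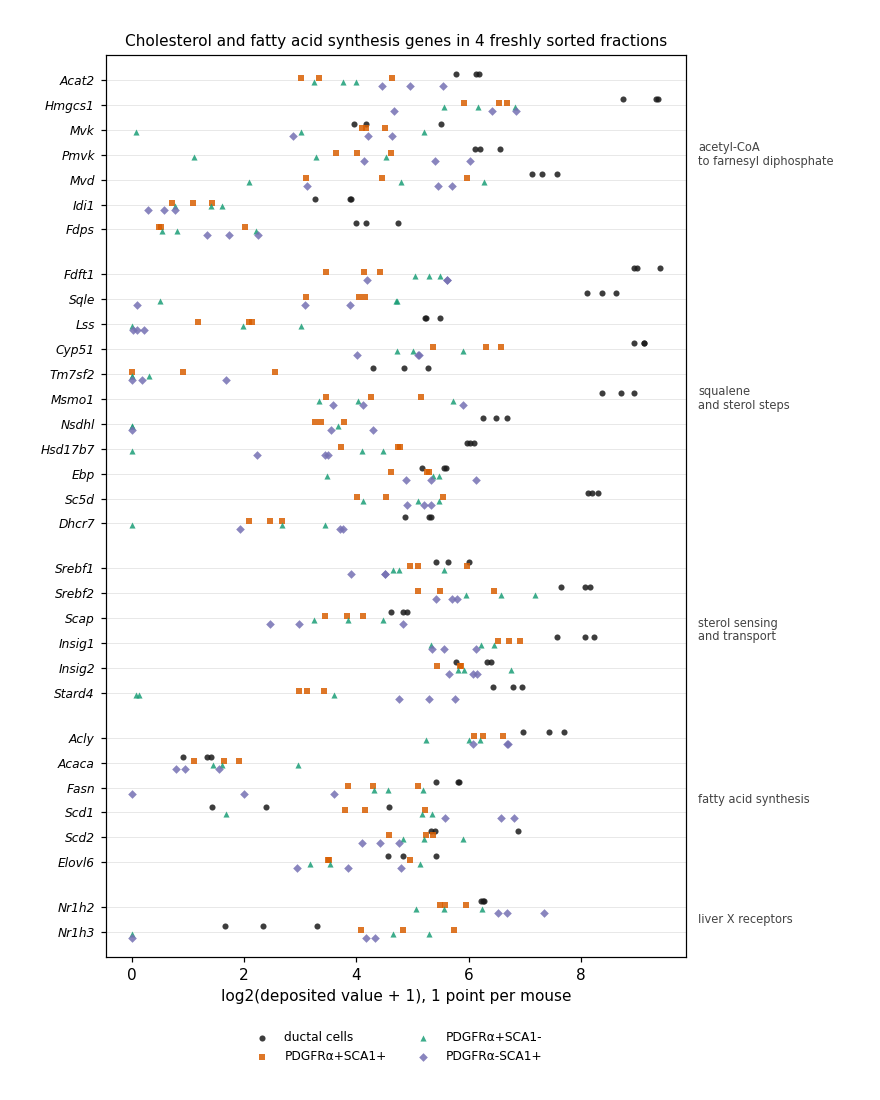
Levels of the 32 genes in the 4 sorted fractions, as log2(deposited value + 1) on the horizontal axis, with 1 point per mouse and genes grouped by role. Black points (DCs) lie to the right of every stromal point for 21 genes, most of them sterol pathway enzymes, whereas fatty acid genes and LXRs overlap more.

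Among the 7 enzymes of the mevalonate part, 5 were lower than in DCs in PDGFRα+SCA1+ cells. In the SCA1- fraction 6 were lower, and in PDGFRα-SCA1+ cells 3. Values are given in the order of mice A, E and F, in the normalised units of the deposited table. Hmgcs1, which joins acetyl-CoA and acetoacetyl-CoA into HMG-CoA, stood at 668, 644 and 433 in DCs, 59.6, 91.9 and 102 in PDGFRα+SCA1+ cells, 113, 71.1 and 46.2 in PDGFRα+SCA1- cells and 24.4, 114 and 84.6 in PDGFRα-SCA1+ cells. The lowest DC sample was thus several times above the highest stromal sample, and the log2 difference was -2.78 ± 0.51 (SE, adjusted p = 0.00155) in PDGFRα+SCA1+ cells. Acat2, which makes acetoacetyl-CoA in the cytosol, stood at 68.9, 71.6 and 54.0 in DCs, 9.10, 7.08 and 24.0 in PDGFRα+SCA1+ cells, 15.01, 8.505 and 12.5 in PDGFRα+SCA1- cells and 20.9, 45.5 and 30.2 in PDGFRα-SCA1+ cells. Acat2 was lower in both PDGFRα+ fractions, while its difference in PDGFRα-SCA1+ cells (-1.04 ± 0.46) did not pass the test. Pmvk, phosphomevalonate kinase, stood at 73.0, 93.9 and 68.2 in DCs, 23.7, 11.4 and 15.1 in PDGFRα+SCA1+ cells, 1.16, 22.2 and 8.71 in PDGFRα+SCA1- cells and 16.5, 41.4 and 64.0 in PDGFRα-SCA1+ cells, and was lower in both PDGFRα+ fractions. The Pmvk call in PDGFRα+SCA1+ cells was lost under several alternatives besides left-out samples. Mvd, which decarboxylates mevalonate diphosphate, stood at 157, 189.7 and 140.1 in DCs, 62.2, 7.63 and 20.95 in PDGFRα+SCA1+ cells, 26.9, 3.23 and 76.5 in PDGFRα+SCA1- cells and 7.71, 42.7 and 51.4 in PDGFRα-SCA1+ cells. Every stromal sample of Mvd lay below every DC sample, but the difference passed in PDGFRα+SCA1- cells alone (-2.95 ± 1.01 SE, adjusted p = 0.0456), a call lost under most alternatives besides left-out samples.

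Idi1 and Fdps, which isomerise isopentenyl diphosphate and build farnesyl diphosphate from it, were detected at low levels. Idi1 stood at 13.8, 14.0 and 8.56 in DCs, 1.12, 0.647 and 1.70 in PDGFRα+SCA1+ cells, 0.691, 1.65 and 2.03 in PDGFRα+SCA1- cells and 0.216, 0.691 and 0.486 in PDGFRα-SCA1+ cells. Fdps stood at 14.9, 17.0 and 25.7 in DCs, 0.432, 3.03 and 0.404 in PDGFRα+SCA1+ cells, 0.445, 0.734 and 3.61 in PDGFRα+SCA1- cells and 2.32, 3.76 and 1.51 in PDGFRα-SCA1+ cells. For both, all 9 stromal samples lay below the 3 DC samples and all 3 comparisons passed. Of the exon length of Fdps 26.7%, and of Idi1 9.22%, is shared with another annotated gene, so that counting could have left out part of their reads. Mvk, mevalonate kinase, overlapped between all fractions at 44.3, 14.5 and 17.1 in DCs, 17.1, 21.7 and 16.2 in PDGFRα+SCA1+ cells, 0.0536, 7.06 and 36.0 in PDGFRα+SCA1- cells and 17.5, 6.32 and 23.7 in PDGFRα-SCA1+ cells, and passed in none.

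Of the 11 enzymes from squalene to cholesterol, 8 were lower in PDGFRα+SCA1+ cells, 10 in the SCA1- fraction and 9 in PDGFRα-SCA1+ cells. Fdft1, squalene synthase, stood at 494, 681 and 514 in DCs, 16.7, 9.94 and 20.5 in PDGFRα+SCA1+ cells, 31.9, 44.2 and 38.1 in PDGFRα+SCA1- cells and 17.2, 48.0 and 48.3 in PDGFRα-SCA1+ cells, a log2 difference of -5.12 ± 0.40 (SE, adjusted p = 2.33e-06) in PDGFRα+SCA1+ cells. Sqle, which adds the epoxide to squalene, stood at 396, 333 and 276 in DCs, 16.9, 7.59 and 15.6 in PDGFRα+SCA1+ cells, 25.1, 0.409 and 25.5 in PDGFRα+SCA1- cells and 0.0672, 7.47 and 13.8 in PDGFRα-SCA1+ cells. Lss, which closes the ring into lanosterol, stood at 44.1, 36.4 and 37.0 in DCs, 3.23, 1.25 and 3.40 in PDGFRα+SCA1+ cells, 2.95, 7.09 and 0 in PDGFRα+SCA1- cells and 0.0639, 0.0147 and 0.163 in PDGFRα-SCA1+ cells. Lss was near or below the worth of 3 reads in the PDGFRα-SCA1+ samples, where its log2 difference of -5.21 ± 0.70 depends on the pseudocount of 1. Cyp51, the lanosterol demethylase, stood at 558, 560.4 and 493 in DCs, 78.7, 40.1 and 94.0 in PDGFRα+SCA1+ cells, 31.4, 25.4 and 58.4 in PDGFRα+SCA1- cells and 15.2, 33.8 and 33.5 in PDGFRα-SCA1+ cells, with a log2 difference of -2.99 ± 0.42 (SE, adjusted p = 0.000203) in PDGFRα+SCA1+ cells. Msmo1, which removes the remaining methyl groups, stood at 493, 419 and 334 in DCs, 18.1, 10.01 and 34.4 in PDGFRα+SCA1+ cells, 51.9, 15.3 and 9.14 in PDGFRα+SCA1- cells and 16.3, 58.9 and 10.9 in PDGFRα-SCA1+ cells. Sc5d, the sterol desaturase, stood at 279, 294 and 317 in DCs, 21.99, 15.1 and 45.9 in PDGFRα+SCA1+ cells, 33.3, 43.5 and 16.5 in PDGFRα+SCA1- cells and 29.0, 35.7 and 39.1 in PDGFRα-SCA1+ cells, with differences from -3.52 to -3.07 over the 3 fractions.

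Of the less abundant sterol enzymes, Tm7sf2, a sterol reductase, stood at 28.0, 38.0 and 18.6 in DCs, 0, 4.87 and 0.874 in PDGFRα+SCA1+ cells, 0, 0.232 and 0 in PDGFRα+SCA1- cells and 0.132, 0 and 2.20 in PDGFRα-SCA1+ cells. It was listed at 0 in 4 of 9 stromal samples. Nsdhl, a sterol dehydrogenase, stood at 75.2, 88.8 and 102 in DCs, 8.58, 12.7 and 9.29 in PDGFRα+SCA1+ cells, 11.8, 0 and 0 in PDGFRα+SCA1- cells and 18.7, 0 and 10.7 in PDGFRα-SCA1+ cells; in PDGFRα+SCA1+ cells its difference of -3.01 ± 1.11 did not pass. Hsd17b7, a sterol ketone reductase, stood at 61.6, 67.4 and 64.3 in DCs, 25.7, 12.2 and 26.6 in PDGFRα+SCA1+ cells, 0, 21.4 and 16.1 in PDGFRα+SCA1- cells and 3.71, 9.90 and 10.3 in PDGFRα-SCA1+ cells. Dhcr7, which makes cholesterol from its last precursor in this list, stood at 38.3, 39.2 and 28.3 in DCs, 5.34, 3.25 and 4.50 in PDGFRα+SCA1+ cells, 9.81, 0 and 5.41 in PDGFRα+SCA1- cells and 12.02, 12.5 and 2.78 in PDGFRα-SCA1+ cells. Each of these 4 was higher in every DC sample than in every stromal sample. Ebp, the sterol isomerase, was the exception in this part of the pathway, with overlapping values of 47.2, 46.4 and 34.9 in DCs, 23.6, 37.1 and 38.1 in PDGFRα+SCA1+ cells, 10.1, 40.2 and 43.6 in PDGFRα+SCA1- cells and 39.3, 28.4 and 69.2 in PDGFRα-SCA1+ cells and no call.

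Of the 6 sterol-sensing and transport genes, 3 were lower in each stromal fraction. Srebf2 stood at 287, 268 and 199.9 in DCs, 33.4, 43.9 and 86.8 in PDGFRα+SCA1+ cells, 94.7, 61.0 and 144 in PDGFRα+SCA1- cells and 42.0, 54.2 and 50.9 in PDGFRα-SCA1+ cells, and its log2 difference in PDGFRα+SCA1+ cells was -2.28 ± 0.38 (SE, adjusted p = 0.000833). Insig1, itself a target of SREBP, stood at 300.1, 269 and 189.6 in DCs, 119.8, 105 and 91.5 in PDGFRα+SCA1+ cells, 86.2, 73.2 and 39.3 in PDGFRα+SCA1- cells and 39.9, 69.6 and 46.2 in PDGFRα-SCA1+ cells. The 2 genes were lower in all 3 fractions, with every stromal sample below every DC sample. The Insig1 call in PDGFRα+SCA1+ cells was lost with quantile normalization, with the reuse of column totals undone and with certain samples left out, and that of Srebf2 in PDGFRα+SCA1- cells with certain samples left out. Stard4, a carrier of sterols between membranes, stood at 122, 110.4 and 85.1 in DCs, 7.66, 9.72 and 6.84 in PDGFRα+SCA1+ cells, 0.0495, 0.0963 and 11.1 in PDGFRα+SCA1- cells and 53.3, 26.0 and 38.2 in PDGFRα-SCA1+ cells. It was lower in both PDGFRα+ fractions, and its difference of -1.46 ± 0.77 in PDGFRα-SCA1+ cells did not pass. Srebf1 stood at 63.5, 41.9 and 48.7 in DCs, 30.1, 33.4 and 61.5 in PDGFRα+SCA1+ cells, 26.1, 24.2 and 46.1 in PDGFRα+SCA1- cells and 21.9, 21.7 and 14.0 in PDGFRα-SCA1+ cells and passed as lower in PDGFRα-SCA1+ cells (-1.38 ± 0.38). Scap ranged from 4.48 to 28.8 and Insig2 from 42.6 to 107 over the 12 samples, and neither was called.

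Fatty acid genes differed less. Acly, which supplies cytosolic acetyl-CoA from citrate, stood at 207, 172 and 125 in DCs, 75.4, 97.1 and 67.2 in PDGFRα+SCA1+ cells, 63.3, 36.8 and 73.0 in PDGFRα+SCA1- cells and 66.7, 103 and 102 in PDGFRα-SCA1+ cells, and was lower in both PDGFRα+ fractions. With the mouse as a replicate block, its difference in PDGFRα+SCA1+ cells no longer passed (-1.05 ± 0.35, adjusted p = 0.0561). No other homeostasis call was lost with the block. That Acly call was also lost with quantile normalization, without the variance trend, with the reuse of column totals undone and with certain samples left out. Fasn, fatty acid synthase, stood at 55.8, 54.9 and 42.0 in DCs, 18.7, 13.5 and 33.4 in PDGFRα+SCA1+ cells, 22.8, 35.3 and 18.8 in PDGFRα+SCA1- cells and 0, 2.98 and 11.1 in PDGFRα-SCA1+ cells. It was lower in PDGFRα-SCA1+ cells (-3.82 ± 0.73 SE, adjusted p = 0.00204). The stearoyl-CoA desaturases, which put a double bond into saturated fatty acids, went in opposite directions in PDGFRα-SCA1+ cells. Scd1 stood at 4.25, 1.68 and 23.0 in DCs, 13.0, 36.5 and 16.7 in PDGFRα+SCA1+ cells, 2.18, 35.2 and 39.7 in PDGFRα+SCA1- cells and 47.1, 94.4 and 112 in PDGFRα-SCA1+ cells, and was higher there than in DCs by 3.53 ± 0.98 (SE, adjusted p = 0.0207). Without the mouse E library the Scd1 difference was 3.40 ± 1.15 with an adjusted p of 0.0616, and the call was also lost without the PDGFRα-SCA1+ sample of mouse F or the DC sample of mouse A or E. Scd2 stood at 117, 41.1 and 39.1 in DCs, 37.0, 22.9 and 40.4 in PDGFRα+SCA1+ cells, 35.7, 27.6 and 58.9 in PDGFRα+SCA1- cells and 20.4, 16.1 and 26.0 in PDGFRα-SCA1+ cells, and was lower there (-1.44 ± 0.46 SE, adjusted p = 0.0397), a call lost under several alternatives. Hepatocytes are a main source of Scd1 RNA in liver; the hepatocyte list in these PDGFRα-SCA1+ samples is given above, and its part in the Scd1 value was not tested. Acaca, acetyl-CoA carboxylase, ranged only from 0.718 to 6.78 and Elovl6, an elongase, from 6.65 to 42.0, and neither was called.

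The LXRs did not differ from DCs by the test in any fraction. Nr1h3, LXRα, stood at 4.07, 2.16 and 8.82 in DCs, 52.2, 27.5 and 15.9 in PDGFRα+SCA1+ cells, 38.4, 24.1 and 0 in PDGFRα+SCA1- cells and 16.9, 0 and 19.3 in PDGFRα-SCA1+ cells, with a log2 difference of 2.45 ± 1.38 in PDGFRα+SCA1+ cells. Nr1h2, LXRβ, stood at 75.2, 73.3 and 76.4 in DCs, 61.2, 44.0 and 47.0 in PDGFRα+SCA1+ cells, 46.4, 74.8 and 32.6 in PDGFRα+SCA1- cells and 91.1, 102 and 163 in PDGFRα-SCA1+ cells.

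Between the stromal fractions few of these genes were called, and the counts are not read as particular to them. PDGFRα+SCA1+ and PDGFRα+SCA1- cells had 0 of 32 called by limma, beside 0.435% of all genes higher and 0.153% lower; 4 of the 32 and 1985 of 17028 genes had an unadjusted p under 0.05, and 1 member was called when mouse F was left out of the PDGFRα+SCA1- group. Samples of PDGFRα+SCA1- cells agreed least with each other, with Spearman correlations across genes of 0.789 to 0.814. Those of PDGFRα+SCA1+ cells had 0.863 to 0.867. The lack of calls thus does not show equal levels. PDGFRα-SCA1+ cells differed from PDGFRα+SCA1+ cells in 4 genes, beside 10.9% of all genes higher and 7.86% lower. Nr1h2 was higher (1.18 ± 0.33 SE, adjusted p = 0.0267), and Cyp51 (-1.33 ± 0.42), Insig1 (-1.04 ± 0.33) and Fasn (-2.56 ± 0.73) were lower. Each of these 4 calls was lost under at least 1 alternative, and the count fell to 1 without the PDGFRα+SCA1+ sample of mouse A or F, to 2 without that of mouse E, to 2 without the PDGFRα-SCA1+ sample of mouse A or F, and to 2 without any 1 of the DC samples. Without the PDGFRα-SCA1+ sample of mouse E it was 3. With quantile normalization the split of 1 higher and 3 lower became 0 higher and 4 lower, with the reuse of column totals undone it became 2 higher and 3 lower, and with only the groups compared 3 higher and 2 lower. Without the PDGFRα-SCA1+ sample of mouse A it was 2 higher and 0 lower, and the median of the 32 genes went from -0.24 to 0.08.

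The transwell experiment asked how DCs change as they grow into organoids, either with added growth factors or beside SCA1+Msc. Culture split the sterol pathway. In EM organoids 12 of the 32 genes were higher and 14 lower than in DCs at day 0, beside 27.1% higher and 17.2% lower among the 18136 genes tested. In co-cultured organoids 11 were higher and 7 lower than in DCs at day 0, beside 23.2% and 19.1% of all genes. When the organoids were compared directly, 14 were higher and 1 lower in co-culture than in EM, beside 5.73% and 7.21% of all genes. The median log2 difference of the 32 genes was -0.26 for EM organoids against DCs, 0.02 for co-cultured organoids against DCs and 0.62 for co-cultured against EM organoids, where all genes had medians of 0.12, 0 and -0.13. With quantile normalization the medians of the 32 genes were -0.60, -0.18 and 0.73, and those of all genes 0, 0 and -0.01. The comparisons with DCs share the same 2 DC samples. Of the calls, 21 of 26, 11 of 18 and 10 of 15 were not lost under any alternative in which the gene was tested. Without co-cultured organoid sample 2, only 11 genes (9 higher and 2 lower) were called against DCs.

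TPM was also summed by role. The 11 squalene and sterol enzymes summed to 1618 to 1702 TPM in DCs at day 0, 692 to 753 in EM organoids and 1459 to 1585 in co-cultured organoids. The 7 mevalonate enzymes summed to 740.5 to 823, 485 to 508 and 837 to 966 TPM in the same order. The 6 fatty acid genes summed to 303 TPM in both DC samples, 864 to 893 in EM and 816 to 866 in co-cultured organoids. Scd2 and Acly make up most of that rise; in EM organoids 3 of the 6 (Acaca, Acly and Scd2) were called higher and 1 (Scd1) lower than in DCs.

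**Figure D2:**
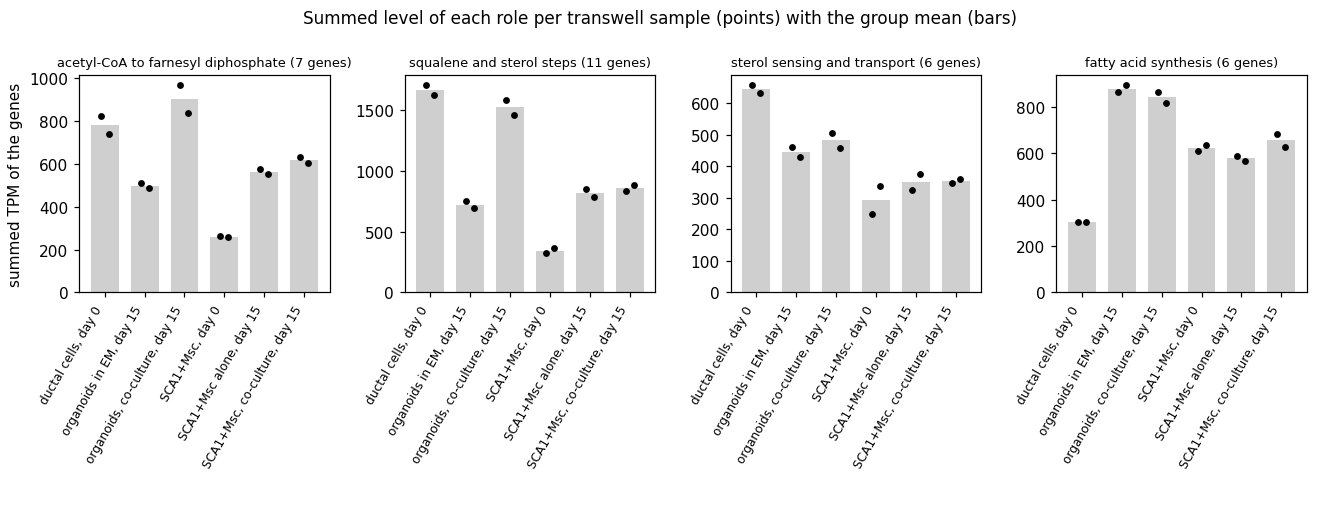
Summed TPM of the genes of each role (vertical axis, from 0) in the 6 transwell groups; points are the 2 samples of a group and bars their mean. The sterol enzyme sums of EM organoids lie below those of DCs and of co-cultured organoids, and the fatty acid sums of both organoid groups lie above those of DCs.

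A set of 11 genes was lower in EM organoids than in DCs and higher in co-cultured than in EM organoids: Cyp51, Fdft1, Fdps, Hmgcs1, Hsd17b7, Idi1, Insig1, Msmo1, Mvd, Sc5d and Scd1. Of all genes tested 2.21% had that pattern, whose comparisons share the EM samples. The EM call of Fdps was lost with any 1 of its 4 samples left out, and those of the other 10 genes were not lost under any alternative. Values are given for sample 1 and then sample 2. Hmgcs1 (gene at chr13:119690379-119708260, GRCm38) stood at 505 and 442 TPM in DCs at day 0, 117 and 105 in EM organoids and 399.8 and 327 in co-cultured organoids. The EM samples were the lowest by a wide margin, and the log2 change was -2.08 ± 0.13 (SE, adjusted p = 2.07e-06) in EM organoids and -0.38 ± 0.13 (SE, adjusted p = 0.0352) in co-cultured organoids. Co-cultured exceeded EM organoids by 1.70 ± 0.13 (SE, adjusted p = 4.02e-05). Cyp51 (chr5:4081145-4104746) stood at 421 and 417 TPM in DCs at day 0, 78.2 and 71.0 in EM organoids and 305 and 251 in co-cultured organoids. It had the largest difference of the 32 between the organoids, 1.88 ± 0.13 (SE, adjusted p = 2.66e-05), and stayed below DCs in co-culture (-0.60 ± 0.13 SE, adjusted p = 0.00469). Of the 7 genes lower in co-cultured organoids than in DCs, Cyp51 and Insig1 were called under every alternative, while the calls of Hmgcs1, Fdft1, Msmo1, Sc5d and Sqle were each lost under at least 1. Msmo1 (chr8:64718139-64733792) stood at 297 and 295 TPM in DCs at day 0, 76.2 and 60.5 in EM organoids and 208 and 184 in co-cultured organoids, a difference of 1.51 ± 0.19 between the organoids. Hsd17b7 (chr1:169949535-169969241) stood at 45.3 and 37.0 TPM in DCs at day 0, 9.83 and 8.96 in EM organoids and 37.8 and 29.8 in co-cultured organoids, a difference of 1.73 ± 0.20.

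Fdft1 stood at 403 and 360.3 TPM in DCs at day 0, 127 and 118 in EM organoids and 278 and 274 in co-cultured organoids. Sc5d stood at 140.4 and 147 TPM in DCs at day 0, 44.9 and 38.9 in EM organoids and 104 and 99.8 in co-cultured organoids. Both were thus between their EM and day 0 levels in co-culture, and both lay below DCs by the test there. Mvd stood at 187 and 165 TPM in DCs at day 0, 88.7 and 89.5 in EM organoids and 186 and 185 in co-cultured organoids. Fdps stood at 16.9 and 17.0 TPM in DCs at day 0, 7.13 and 6.81 in EM organoids and 17.2 and 15.8 in co-cultured organoids, and Idi1 at 5.93 and 4.79 TPM in DCs at day 0, 1.64 and 0.804 in EM organoids and 4.15 and 3.48 in co-cultured organoids. These mevalonate genes did not differ from DCs by the test in co-culture, with log2 differences of 0.08 ± 0.12, -0.04 ± 0.31 and -0.40 ± 0.30. The higher levels of Fdps and Idi1 in co-cultured than in EM organoids were lost under some alternatives. Insig1, the sterol-responsive brake on SREBP transport, stood at 156 and 176 TPM in DCs at day 0, 29.7 and 29.6 in EM organoids and 77.5 and 60.04 in co-cultured organoids, and in co-culture it remained furthest below DCs of the 7 lower genes (-1.27 ± 0.15 SE, adjusted p = 0.000108).

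Sqle, Srebf2 and Stard4 were also lower in EM organoids than in DCs, but did not pass between the organoids. Sqle stood at 242 and 212 TPM in DCs at day 0, 109 and 96.3 in EM organoids and 152 and 145 in co-cultured organoids, with 0.53 ± 0.16 between the organoids. Srebf2 stood at 277 and 244 TPM in DCs at day 0, 136 and 142 in EM organoids and 204 and 177 in co-cultured organoids, lower in EM organoids than in DCs (-0.90 ± 0.21 SE, adjusted p = 0.00616), with 0.45 ± 0.21 between the organoids. Stard4 stood at 65.5 and 55.3 TPM in DCs at day 0, 21.98 and 20.8 in EM organoids and 34.3 and 31.4 in co-cultured organoids, lower in EM organoids than in DCs (-1.45 ± 0.48), a call lost under some alternatives. For all 3 the EM samples were the lowest and the co-cultured samples came next.

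Another set of 11 genes was higher than in DCs in both kinds of organoid, beside 18.6% of all genes: Acaca, Acat2, Acly, Dhcr7, Ebp, Mvk, Nsdhl, Pmvk, Scd2, Srebf1 and Tm7sf2. Thus 4 of the 11 squalene and sterol enzymes rose in EM organoids while 6 fell, and 3 of the 7 mevalonate enzymes rose while 4 fell. Tm7sf2 stood at 15.5 and 9.82 TPM in DCs at day 0, 44.1 and 57.3 in EM organoids and 88.3 and 76.0 in co-cultured organoids, a change of 1.94 ± 0.22 (SE, adjusted p = 0.000106) in EM and 2.63 ± 0.22 (SE, adjusted p = 1.71e-05) in co-cultured organoids. Ebp stood at 30.5 and 36.4 TPM in DCs at day 0, 83.4 and 104 in EM organoids and 179 and 175 in co-cultured organoids, and Nsdhl at 55.9 and 48.8 TPM in DCs at day 0, 91.5 and 67.8 in EM organoids and 146 and 146 in co-cultured organoids. Both were higher in co-culture than in EM (0.92 ± 0.20 and 0.88 ± 0.18), calls that were lost with 1 or the other organoid sample left out. Dhcr7 stood at 19.6 and 22.01 TPM in DCs at day 0, 61.7 and 48.1 in EM organoids and 51.6 and 45.8 in co-cultured organoids, with overlapping organoid groups. Mvk stood at 18.2 and 14.8 TPM in DCs at day 0, 65.1 and 56.7 in EM organoids and 108 and 83.1 in co-cultured organoids, and Pmvk at 51.8 and 51.2 TPM in DCs at day 0, 83.0 and 77.6 in EM organoids and 137 and 109 in co-cultured organoids. Pmvk was higher in co-culture than in EM (0.60 ± 0.15), while for Mvk the difference of 0.63 ± 0.22 did not pass. That Pmvk call was lost without the variance trend and with certain samples left out. Against DCs, the EM call of Pmvk was lost with quantile normalization. The EM call of Nsdhl was lost with quantile normalization, without the variance trend and with certain samples left out. Acat2 stood at 38.2 and 45.9 TPM in DCs at day 0, 146 and 149 in EM organoids and 114 and 112 in co-cultured organoids. Lss alone among the sterol enzymes was called in none of the 3 comparisons, at 31.6 and 32.3 TPM in DCs at day 0, 27.1 and 21.5 in EM organoids and 35.8 and 33.0 in co-cultured organoids.

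Among fatty acid genes Scd2 changed most. Scd2 (chr19:44293674-44306864) stood at 35.3 and 36.7 TPM in DCs at day 0, 446 and 419 in EM organoids and 519 and 493 in co-cultured organoids, a log2 change of 3.55 ± 0.09 (SE, adjusted p = 2.02e-08) in EM and 3.78 ± 0.09 (SE, adjusted p = 1.14e-08) in co-cultured organoids. Its neighbour on chromosome 19, Scd1 (chr19:44394455-44407879), stood at 42.0 and 43.2 TPM in DCs at day 0, 27.1 and 20.3 in EM organoids and 56.8 and 56.3 in co-cultured organoids. Scd1 was lower in EM organoids than in DCs (-0.84 ± 0.18 SE, adjusted p = 0.00436), and higher in co-cultured than in EM organoids (1.24 ± 0.18 SE, adjusted p = 0.00207). Acly (chr11:100476353-100528000) stood at 158 and 163 TPM in DCs at day 0, 335 and 397 in EM organoids and 221 and 201 in co-cultured organoids. It was the single member that was lower in co-cultured than in EM organoids (-0.79 ± 0.13 SE, adjusted p = 0.00408). Acaca stood at 1.12 and 0.505 TPM in DCs at day 0, 3.55 and 3.32 in EM organoids and 2.34 and 2.51 in co-cultured organoids, low in all samples. The calls of Acly and Acaca in co-cultured organoids against DCs were lost under some alternatives. Srebf1 stood at 66.6 and 62.6 TPM in DCs at day 0, 165 and 142 in EM organoids and 109 and 106 in co-cultured organoids, higher than in DCs in both organoids, whereas Srebf2 was higher in neither. Fasn at 56.1 and 46.1 TPM in DCs at day 0, 44.2 and 43.8 in EM organoids and 48.6 and 46.1 in co-cultured organoids, and Elovl6 at 10.05 and 13.3 TPM in DCs at day 0, 8.46 and 9.67 in EM organoids and 18.04 and 17.4 in co-cultured organoids, were called in none of the 3 comparisons.

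Nr1h3 stood at 2.86 and 5.91 TPM in DCs at day 0, 8.14 and 21.7 in EM organoids and 3.07 and 8.18 in co-cultured organoids. Its higher level in EM organoids than in DCs (1.48 ± 0.51) was lost under 4 alternatives besides left-out samples. Nr1h2 stood at 143 and 115 TPM in DCs at day 0, 132 and 106 in EM organoids and 109.6 and 101 in co-cultured organoids, and was not called, nor were Scap and Insig2, whose log2 differences stayed between -0.41 and 0.17. The ductal list summed to 49719.8 to 51709 TPM in DCs, 46261 to 47574 in EM and 36169 to 38497 in co-cultured organoids. The proliferation list (Mki67, Top2a, Ccnb1, Cdk1, Mcm2, Mcm5 and Pcna) summed to 101 to 120.9, 237 to 277 and 226 to 261 TPM in the same order. The hepatocyte list, of which 6 of 8 genes fell in each organoid group, went from 4188 to 5517 TPM in DCs to 635 to 783 in EM and 77.1 to 87.2 in co-cultured organoids, and its part in the differences from day 0 was not tested. The adipocyte list (Adipoq, Plin1, Cidec and Lep) summed to 0 to 0.439 TPM in EM and 6.003 to 13.4 in co-cultured organoids, with 3 of its 4 markers at 0 in the latter.

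**Figure D3:**
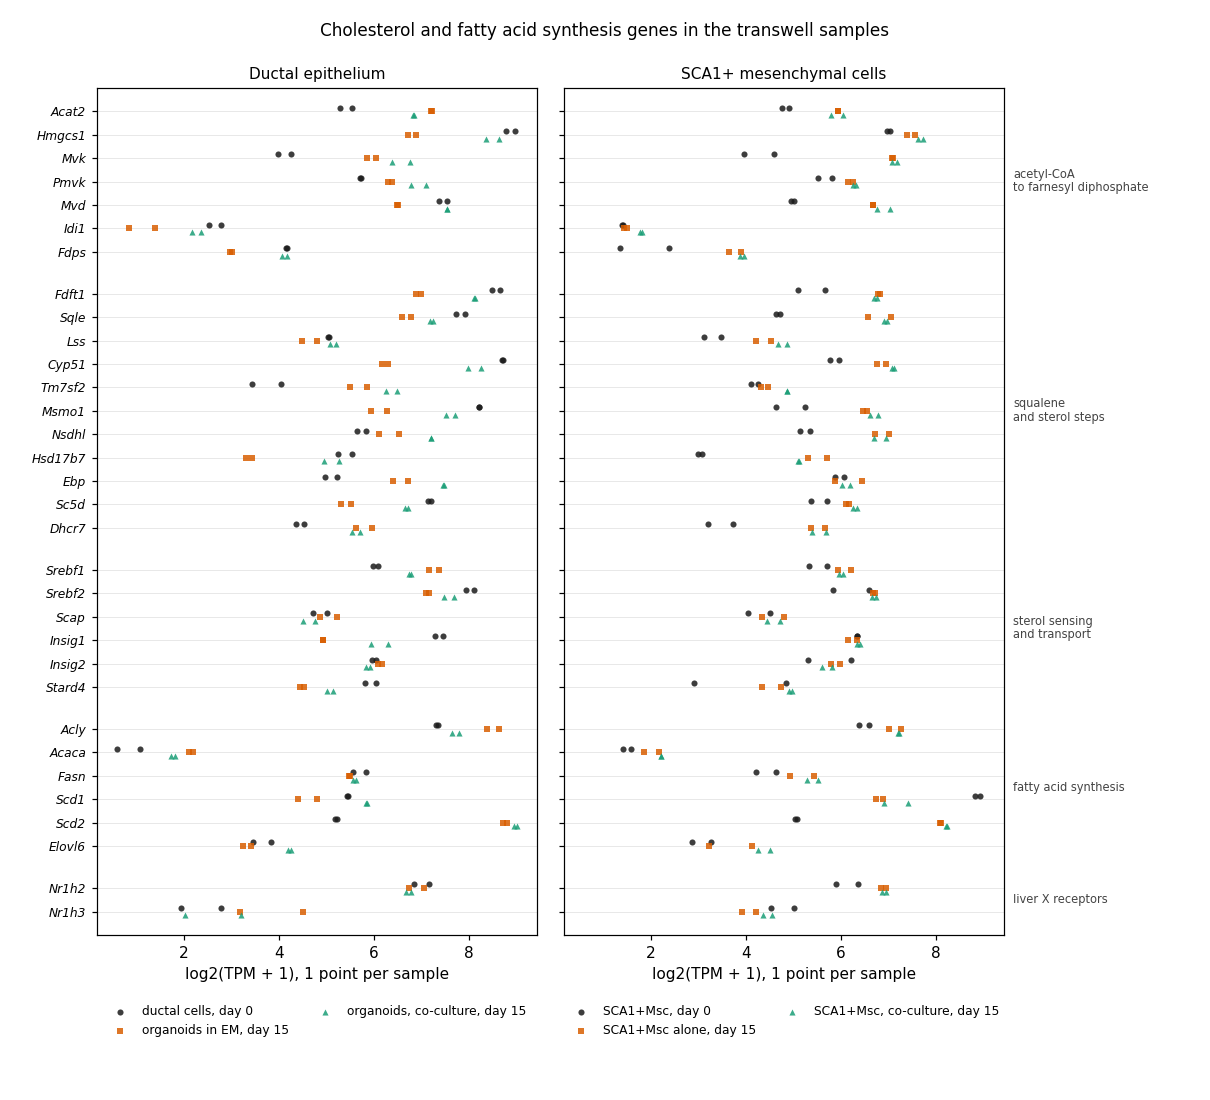
Levels of the 32 genes in the transwell samples as log2(TPM + 1), with 1 point per sample; ductal epithelium on the left, SCA1+ mesenchymal cells on the right. Among the ductal samples, EM organoids (squares, left) hold the lowest values of Hmgcs1, Cyp51, Msmo1 and Hsd17b7, and Scd2 lies far above day 0 in all 4 cultures.

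At day 0 SCA1+Msc held less of the sterol pathway than DCs. Of the 32 genes 20 were lower and 3 higher in SCA1+Msc, beside 24.7% lower and 21.4% higher among all genes; 15 of the 20 were also lower in PDGFRα+SCA1+ cells than in DCs in the homeostasis experiment, beside 43.4% of the 4316 genes lower in SCA1+Msc and tested in both experiments. The median difference was -0.93 for the 32 and -0.07 for all genes. Among the lower genes the largest differences were those of Msmo1, Fdft1 and Sqle. Msmo1 stood at 24.0 and 37.2 TPM against 297 and 295 in DCs (-3.26 ± 0.19 SE, adjusted p = 1.48e-06), and Fdft1 at 33.4 and 49.7 against 403 and 360.3 (-3.19 ± 0.16 SE, adjusted p = 6.03e-07). Sqle stood at 23.7 and 25.3 against 242 and 212 TPM (-3.16 ± 0.16 SE, adjusted p = 6.21e-07). The 3 higher genes were Scd1, Nr1h3 and Ebp. Scd1 stood at 455 and 489.9 TPM against 42.0 and 43.2 (3.44 ± 0.18 SE, adjusted p = 7.07e-07), Nr1h3 at 22.03 and 31.5 against 2.86 and 5.91 (2.40 ± 0.51 SE, adjusted p = 0.00335), and Ebp at 66.0 and 58.1 against 30.5 and 36.4 (0.87 ± 0.20 SE, adjusted p = 0.00518).

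SCA1+Msc at day 0 also had the highest hepatocyte signal of the transwell groups. Their hepatocyte list summed to 19120.4 to 23989 TPM, against 4188 to 5517 in DCs at day 0 and at most 469.7 in cultured SCA1+Msc. Their ductal list summed to 1156 to 2417 TPM and their endothelial list to 149 to 163. The part of these lists in the Scd1 level at day 0 and in its later fall was not tested. In culture the mesenchymal list went from 5599 to 6319 to 15055 to 15858 TPM alone and 16049 to 17962 in co-culture, and endothelial marker RNA was still present at 89.4 to 151 and 118 to 171. The macrophage and leukocyte list (Ptprc, Adgre1, Clec4f and Cd68) went from 47.1 to 92.8 TPM at day 0 to 8.81 to 17.0 alone and 4.15 to 11.2 in co-culture.

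In cultured SCA1+Msc most sterol enzymes rose. For co-cultured SCA1+Msc the change from day 0 spans the earlier expansion on the plate as well as the 15 days. Alone for 15 days, 20 of the 32 genes were higher and 1 lower than at day 0, beside 27.4% and 17.5% of all genes. In co-culture 22 were higher and 1 lower, beside 26.0% and 17.3%. Of these, 20 were higher in both cultures, which share the day 0 samples, beside 22.9% of all genes. The median change was 0.67 and 0.88 for the 32 and 0.19 and 0.17 for all genes. Of the calls, 15 of 21 and 20 of 23 were not lost under any alternative in which the gene was tested.

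Of the mevalonate enzymes 6 of 7 rose in each culture. Mvk stood at 23.3 and 14.7 TPM at day 0, 135 and 135 in Msc cultured alone and 145 and 134 in co-cultured Msc, a change of 2.80 ± 0.22 (SE, adjusted p = 1.02e-05) alone. Mvd stood at 30.1 and 31.3 TPM at day 0, 102 and 102 in Msc cultured alone and 130.3 and 107 in co-cultured Msc, and Fdps at 1.54 and 4.20 TPM at day 0, 11.5 and 14.0 in Msc cultured alone and 13.7 and 14.6 in co-cultured Msc. Each cultured sample exceeded each day 0 sample for these 3. Hmgcs1 rose less, at 125 and 131 TPM at day 0, 188 and 167 in Msc cultured alone and 197 and 212 in co-cultured Msc, and its call alone was lost under some alternatives. Acat2 stood at 26.1 and 29.1 TPM at day 0, 60.2 and 60.9 in Msc cultured alone and 64.7 and 54.4 in co-cultured Msc. Pmvk stood at 55.1 and 45.1 TPM at day 0, 76.1 and 70.6 in Msc cultured alone and 75.8 and 78.5 in co-cultured Msc, with changes of 0.55 ± 0.15 and 0.62 ± 0.15 that quantile normalization took below the threshold. Idi1 was the one not called, at 1.67 and 1.62 TPM at day 0, 1.82 and 1.70 in Msc cultured alone and 2.43 and 2.53 in co-cultured Msc.

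Among squalene and sterol enzymes 9 of 11 rose alone and 10 of 11 in co-culture. Sqle stood at 23.7 and 25.3 TPM at day 0, 133 and 94.1 in Msc cultured alone and 119 and 126 in co-cultured Msc, a change of 2.14 ± 0.16 (SE, adjusted p = 8.34e-06) alone and 2.27 ± 0.16 (SE, adjusted p = 6.59e-06) in co-culture. Hsd17b7 stood at 7.42 and 7.03 TPM at day 0, 38.5 and 51.1 in Msc cultured alone and 33.5 and 33.8 in co-cultured Msc. Dhcr7 stood at 12.2 and 8.17 TPM at day 0, 49.6 and 40.2 in Msc cultured alone and 41.3 and 50.4 in co-cultured Msc, and Msmo1 at 24.0 and 37.2 TPM at day 0, 92.9 and 87.2 in Msc cultured alone and 97.4 and 109.6 in co-cultured Msc. Nsdhl stood at 34.5 and 39.99 TPM at day 0, 128 and 104 in Msc cultured alone and 103 and 123 in co-cultured Msc, Fdft1 at 33.4 and 49.7 TPM at day 0, 109 and 113 in Msc cultured alone and 104 and 107 in co-cultured Msc. These genes rose by 1.35 to 2.27 on the log2 scale in co-culture, with no overlap between day 0 and cultured samples. Lss stood at 7.65 and 10.1 TPM at day 0, 17.6 and 22.04 in Msc cultured alone and 28.2 and 24.4 in co-cultured Msc, Cyp51 at 53.7 and 61.5 TPM at day 0, 107 and 123 in Msc cultured alone and 134 and 139 in co-cultured Msc, and Sc5d at 40.3 and 51.7 TPM at day 0, 68.2 and 71.4 in Msc cultured alone and 76.0 and 79.6 in co-cultured Msc. Tm7sf2, at 18.2 and 16.3 TPM at day 0, 21.1 and 19.0 in Msc cultured alone and 28.2 and 28.1 in co-cultured Msc, passed in co-culture (0.68 ± 0.22) and not alone (0.21 ± 0.22), and the call was lost under several alternatives. Ebp, at 66.0 and 58.1 TPM at day 0, 86.7 and 58.1 in Msc cultured alone and 72.0 and 64.3 in co-cultured Msc, was called in neither.

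The sensing genes moved little. Srebf1 stood at 51.2 and 39.2 TPM at day 0, 60.7 and 73.8 in Msc cultured alone and 64.7 and 61.3 in co-cultured Msc, a rise of 0.57 ± 0.16 alone and 0.48 ± 0.16 in co-culture that several alternatives took below the threshold. Srebf2 stood at 56.0 and 95.5 TPM at day 0, 102 and 105 in Msc cultured alone and 100.4 and 105 in co-cultured Msc, with changes of 0.50 ± 0.21 and 0.49 ± 0.21 that did not pass. Insig1 stood at 80.4 and 80.2 TPM at day 0, 69.7 and 80.0 in Msc cultured alone and 83.6 and 80.5 in co-cultured Msc, with changes of -0.10 ± 0.15 and 0.03 ± 0.15. Scap, Insig2 and Stard4 were not called, and Stard4, at 6.49 and 28.0 TPM at day 0, 19.4 and 25.9 in Msc cultured alone and 29.3 and 30.2 in co-cultured Msc, was spread widely at day 0.

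Scd1 and Scd2 exchanged places in SCA1+Msc. Scd1 stood at 455 and 489.9 TPM at day 0, 118 and 106 in Msc cultured alone and 169 and 120.2 in co-cultured Msc, and was the single member that fell, with log2 changes of -2.07 ± 0.18 (SE, adjusted p = 2.01e-05) alone and -1.72 ± 0.18 (SE, adjusted p = 6.61e-05) in co-culture. Scd2 stood at 32.8 and 31.7 TPM at day 0, 276 and 271 in Msc cultured alone and 302 and 294 in co-cultured Msc, and rose by 3.05 ± 0.09 (SE, adjusted p = 3.2e-08) and 3.17 ± 0.09 (SE, adjusted p = 2.58e-08). Acly stood at 95.6 and 82.2 TPM at day 0, 154 and 129 in Msc cultured alone and 147 and 148 in co-cultured Msc. Fasn stood at 17.5 and 24.0 TPM at day 0, 29.5 and 42.1 in Msc cultured alone and 45.1 and 37.9 in co-cultured Msc, higher in both cultures. Elovl6, at 6.29 and 8.59 TPM at day 0, 8.39 and 16.4 in Msc cultured alone and 18.1 and 21.7 in co-cultured Msc, rose in co-culture by 1.32 ± 0.31 (SE, adjusted p = 0.00693); its change alone (0.61 ± 0.31) did not pass. Acaca, at 1.998 and 1.68 TPM at day 0, 2.60 and 3.50 in Msc cultured alone and 3.64 and 3.68 in co-cultured Msc, did not pass. Of the LXRs, Nr1h2 rose from 59.1 and 81.6 TPM to 114 and 123 alone and 122 and 116 in co-culture, and Nr1h3, at 22.03 and 31.5 TPM at day 0, 14.1 and 17.5 in Msc cultured alone and 19.5 and 22.6 in co-cultured Msc, was not called.

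Co-cultured SCA1+Msc were compared with SCA1+Msc alone to ask what the presence of DCs changes. The methods describe the earlier expansion for the co-culture and do not say whether SCA1+Msc alone had it. The presence of DCs and the time since sorting may thus differ together. No member was called by limma (0 of 32), beside 0.0937% of all genes higher and 0.0331% lower; 1 member and 1263 of 18136 genes had an unadjusted p under 0.05. The median difference was 0.13 for the 32 and 0 for all genes.

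**Figure D4:**
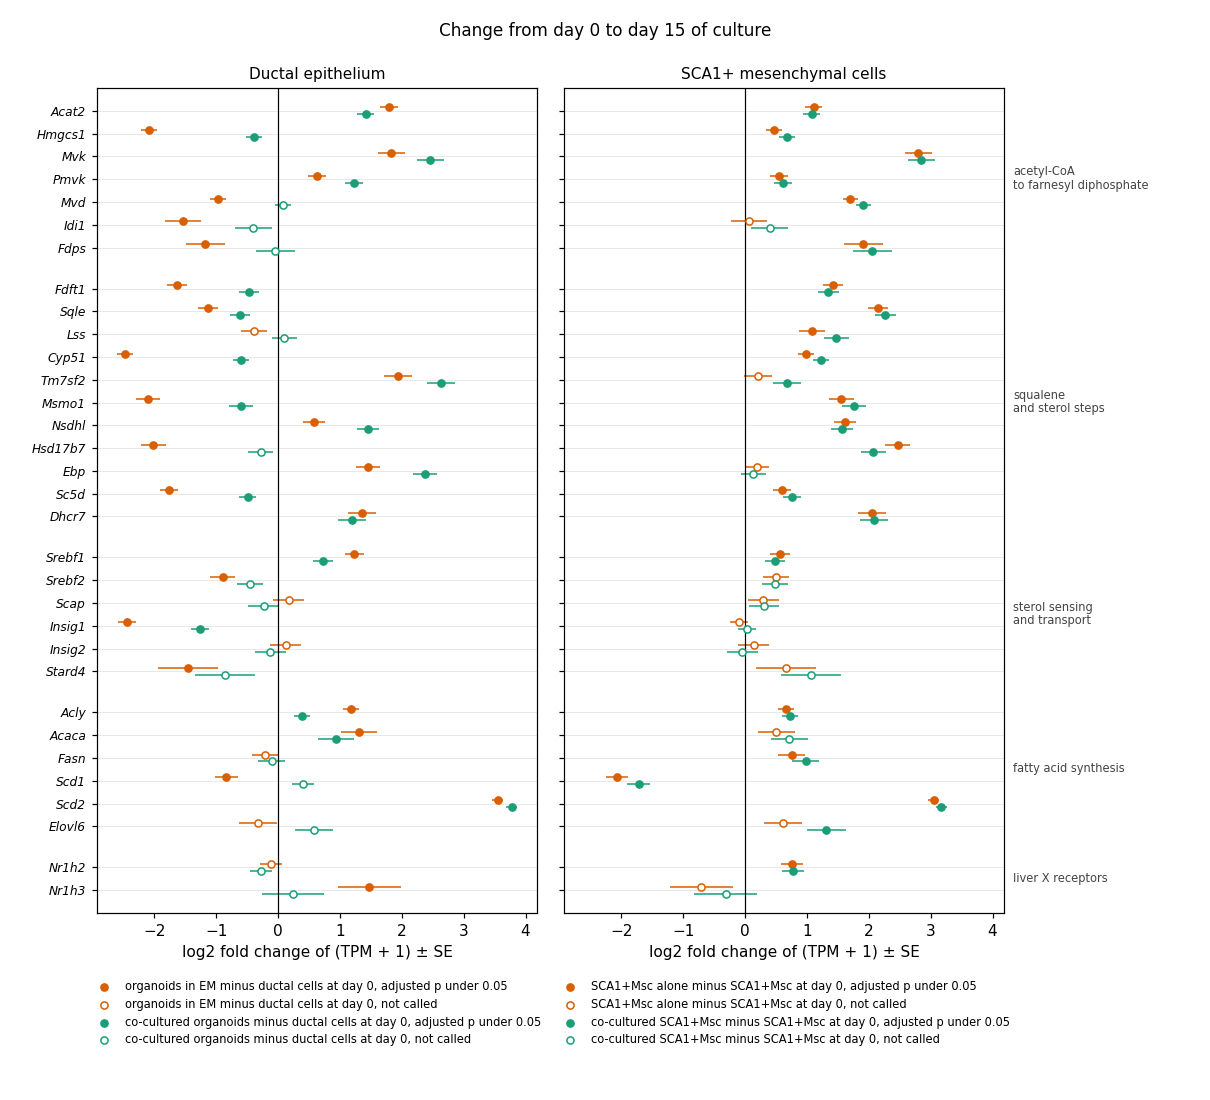
Log2 change ± SE of each gene from day 0 to day 15, for ductal epithelium (left) and SCA1+Msc (right). Filled points passed an adjusted p of 0.05 and open points did not. For co-cultured SCA1+Msc the 15 days follow an earlier expansion on the plate. On the left the orange EM points of Hmgcs1, Cyp51, Msmo1, Hsd17b7, Sc5d and Insig1 lie well below 0 and the green co-culture points nearer to it, while on the right most points lie above 0 and those of Scd1 far below.

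The change from day 0 in co-culture was compared between the epithelium and SCA1+Msc by the interaction term. It passed for 18 of the 32 genes, 4 with a more positive change in organoids and 14 with a more negative one, beside 13.8% and 14.5% of all genes. Sqle differed most (-2.88 ± 0.23 SE, adjusted p = 3.67e-05), falling in organoids (-0.61 ± 0.16) and rising in SCA1+Msc (2.27 ± 0.16). The 4 with the more positive change in organoids were Ebp, Scd1, Tm7sf2 and Scd2. Taking calls alone, 6 genes (Cyp51, Fdft1, Hmgcs1, Msmo1, Sc5d and Sqle) were lower in co-cultured organoids than in DCs and higher in co-cultured SCA1+Msc than at day 0, beside 1.70% of all genes. Another 8 (Acat2, Acly, Dhcr7, Mvk, Nsdhl, Pmvk, Scd2 and Srebf1) were higher than at day 0 in all 4 cultures, beside 10.9%. The day 0 baselines of the compartments differ, as given above. Their culture differed too, since SCA1+Msc were expanded on the plate before DCs were added, and DCs grew in a gel (Matrigel). Cell type and culture history thus cannot be told apart in the interaction term.

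Genes around the pathway were counted from lists of related function. These counts stand beside all-gene shares of 27.1% higher and 17.2% lower in EM organoids against DCs, 23.2% and 19.1% in co-cultured organoids against DCs, and 5.73% and 7.21% between the organoids. In SCA1+Msc the shares were 27.4% and 17.5% alone and 26.0% and 17.3% in co-culture, and nothing particular to a list is read from its counts. Of 18 other fatty acid and glycerolipid genes, 10 were higher and 3 lower in EM organoids than in DCs, and 11 higher and 3 lower in co-culture. Slc25a1, which exports citrate from mitochondria, was higher in both (1.74 ± 0.17 and 2.24 ± 0.17). Thrsp was lower in both (-2.13 ± 0.38 and -2.27 ± 0.38), and Fads2, a desaturase, was higher in EM organoids (1.61 ± 0.15). Between the organoids 3 were higher and 3 lower in co-culture. Dgat2, which completes triglycerides, was higher (2.92 ± 0.30, means of 244 against 31.3 TPM), and Mlxipl (-1.62 ± 0.35) and Fads2 (-0.98 ± 0.15) were lower. Dgat2 thus moved with the sterol enzymes between the organoids, and Fads2 with Acly. In SCA1+Msc 6 were higher and 6 lower alone, and 5 higher and 4 lower in co-culture. Thrsp fell most (-6.67 ± 0.38 alone), and Mlxipl went from a mean of 16.4 TPM at day 0 to being listed at 0 in both samples alone. The hepatocyte list of SCA1+Msc, given above, also fell from day 0, and its part in these falls was not tested.

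Of 9 genes of sterol transport, esterification and LXR response, 0 were higher and 4 lower in co-culture than in EM. Abcg1, a sterol exporter, was lower (-2.30 ± 0.53, means of 2.87 against 18.3 TPM), as were Mylip, a ubiquitin ligase for lipoprotein receptors (-2.23 ± 0.42, means of 0.563 against 6.30 TPM), and Npc2, which moves cholesterol out of lysosomes (-0.95 ± 0.13). Against DCs, 4 were higher and 1 lower in EM organoids, with Npc2 at 2.09 ± 0.13, and 4 higher and 3 lower in co-culture. In healthy liver 8 of the 9 were tested. Mylip (4.30 ± 0.36) and Abcg1 (2.61 ± 0.44) were higher in PDGFRα+SCA1+ cells than in DCs, where 3 were higher and 2 lower, beside 9.85% and 14.0% of all genes. Both genes were also among those called in the other stromal fractions against DCs. PDGFRα+SCA1- cells had 4 higher and 3 lower, beside 9.98% and 18.9% of all genes. PDGFRα-SCA1+ cells had 3 higher and 2 lower, beside 11.5% and 11.3%.

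Of the 8 genes of the isoprenoid branch, which leaves the pathway at farnesyl diphosphate, 4 were higher and 1 lower in EM organoids than in DCs, 1 higher in co-culture, and 1 (Fnta, -0.79 ± 0.15) lower in co-culture than in EM. In SCA1+Msc 5 rose and 1 fell alone, and 6 rose and 1 fell in co-culture, with Fnta at 1.83 ± 0.15 and 1.65 ± 0.15. Of 6 SREBP processing and degradation genes, 2 were higher in EM organoids than in DCs and 1 in co-culture, with Erlin2 at 1.83 ± 0.21 and 1.41 ± 0.21; Erlin1 was lower in co-culture than in EM (-1.21 ± 0.24). In SCA1+Msc 4 of the 6 rose in each culture. Of 10 fatty acid oxidation genes, 6 were higher in EM organoids than in DCs and 3 higher and 2 lower in co-culture; Cpt2, which readies fatty acids for oxidation inside mitochondria, was higher in both (3.05 ± 0.19 and 3.04 ± 0.19). Between the organoids 1 (Acadvl, -0.65 ± 0.12) was lower in co-culture.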

How the data were processed

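RNA was measured by 50-base single-read Smart-seq2 sequencing of bulk samples, 12 in each experiment. Per the study's methods and the submitters' processing notes, the authors mapped reads with STAR 2.5.0a to GRCm38 (mm10), filtered them on mapping quality with SAMtools and counted them over all exons of each Ensembl gene with featureCounts. The transwell table holds RPKM values that the authors made from these counts, and TPM was computed here from them by rescaling each sample to a common total. The homeostasis table holds values the authors named TPM, treated here as signal: the deposited columns do not share a common sum, and each value is 0.722 to 1.39 times the TPM, in a pattern that reusing column totals across samples would give. They were used as deposited, with true TPM as an alternative. Their 4 columns of population means were not used. The transwell table has 26 symbols that have become dates, none of them reported here.

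Low values in both tables were whole multiples of the worth of 1 read within a tolerance of 0.02 (93.0% of 50177 transwell values and 92.9% of 47022 homeostasis values), which gave the depth. At that depth 3 reads were worth 0.0196 to 0.293 units, and 17 of 384 homeostasis values of the 32 genes fell below it. The counting is not stated to use strand, so overlapping genes are uncertain: 18.3% of the exon length of Fdft1, 12.1% of that of Hmgcs1 and 3.76% of that of Cyp51 is shared with another gene, and Nr1h2 has a pseudogene copy.

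Samples were grouped from the submitters' labels. Each experiment was fitted on its own with limma 3.58.1 (R 4.3.3) on log2(value + 1), with all groups in 1 model and a trended variance, over genes at 1 or more in at least 3 (homeostasis) or 2 (transwell) samples. A gene was called at a Benjamini-Hochberg adjusted p under 0.05 over all genes tested. The steps were tested on simulated data. Tables were handled with Python 3.11.15 and pandas 2.3.3. Homeostasis samples of a letter come from 1 mouse, although their deviations from the group means hardly correlated (0.0102 to 0.0973); the unblocked fit was kept as the main one and the mouse was added as a block in an alternative. Other alternatives were a pseudocount of 0.1, no filter, a minimum of 5, quantile normalization, no variance trend, only the groups compared, RPKM as deposited and each sample left out in turn. All 32 genes are described; of the other lists the 3 genes with the largest change among those called were named, or fewer. The members, lists and tests were chosen with earlier results of these data known.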

Additional observations from a re-analysis of the deposited data

Results flagged for a closer look

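For 18 genes the change from day 0 to day 15 of co-culture differed between the ductal epithelium and SCA1+Msc by the limma interaction term. Values are the log2 change in organoids minus that in SCA1+Msc, ± SE, over 2 samples per group. Among squalene and sterol enzymes the organoid change was the more negative for Sqle (-2.88 ± 0.23), Hsd17b7 (-2.36 ± 0.29), Msmo1 (-2.35 ± 0.28), Cyp51 (-1.83 ± 0.18), Fdft1 (-1.81 ± 0.23), Lss (-1.38 ± 0.29) and Sc5d (-1.25 ± 0.20), and the more positive for Ebp (2.24 ± 0.28) and Tm7sf2 (1.95 ± 0.32). The mevalonate enzymes Fdps (-2.10 ± 0.44), Mvd (-1.83 ± 0.17) and Hmgcs1 (-1.06 ± 0.18) were likewise more negative in organoids. So were Insig1 (-1.30 ± 0.21), Srebf2 (-0.93 ± 0.29), Fasn (-1.08 ± 0.30) and Nr1h2 (-1.05 ± 0.25). Both desaturases had the more positive change in organoids, Scd1 (2.12 ± 0.26) and Scd2 (0.61 ± 0.13), although Scd1 fell and Scd2 rose in SCA1+Msc. The calls of Fasn, Nr1h2, Scd2 and Srebf2 were lost under at least 1 alternative. The hepatocyte marker list summed to 19120.4 to 23989 TPM in SCA1+Msc at day 0 and to 4188 to 5517 in DCs, and its part in these differences was not tested. SCA1+Msc had also been expanded on the plate before the co-culture, unlike DCs, so cell type and culture history cannot be told apart here.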

How the results depend on the processing

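No call of a single gene turned its direction under any alternative run, but 2 small medians of the 32 genes and 1 split did. For co-cultured organoids against DCs the median of 0.02 was -0.18 with quantile normalization and ran down to -0.03 with a DC or co-cultured organoid sample left out. For PDGFRα-SCA1+ against PDGFRα+SCA1+ cells the median of -0.24 was 0.08 without the PDGFRα-SCA1+ sample of mouse A. The split of 1 higher and 3 lower was 3 and 2 with only the groups compared, and 2 and 0 without that sample. It was 1 and 0 without a filter, and likewise without the PDGFRα+SCA1+ sample of mouse A or of mouse F. Of 203 calls of a gene in a comparison, 148 were lost under none and 55 under at least 1, among them 44 with some sample left out, 23 with only the groups compared, 22 without the variance trend, 19 without a filter on low values, 16 with a pseudocount of 0.1 and 15 with quantile normalization. For PDGFRα-SCA1+ against PDGFRα+SCA1+ cells the count of 4 became 2 with a pseudocount of 0.1, 1 without a filter and 1 without the variance trend. The causes were not tested.

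With each sample left out in turn, the genes called numbered 13 to 19 for PDGFRα+SCA1+, 17 to 21 for PDGFRα+SCA1- and 13 to 21 for PDGFRα-SCA1+ cells against DCs, 0 to 1 between the PDGFRα+ fractions (1 without the SCA1- sample of mouse F) and 1 to 6 between the SCA1+ fractions. In the transwell they numbered 23 to 26 for EM and 11 to 20 for co-cultured organoids against DCs, 10 to 19 between organoids, 19 to 22 for SCA1+Msc alone, 21 to 23 in co-culture, 0 for co-culture against alone, 21 to 24 at day 0 and 15 to 20 for the interaction. A group left with 1 sample is assumed to vary like the others.

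The replicate block took 2 of 203 calls below the threshold, that of Acly given above and that of Fdft1 in co-cultured organoids against DCs (-0.46 ± 0.17, adjusted p = 0.0560). With the block 17 genes were called in each of the comparisons of co-cultured organoids with DCs and with EM organoids. The labels do not say whether transwell samples of the same number, 1 or 2, share a source. Correlations of 0.00428 to 0.0295 between same-numbered samples, with 2 samples per group, cannot settle it.

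Quantile normalization moved the median log2 difference of all genes from -0.28 to -0.10 in PDGFRα+SCA1+ and from -0.47 to -0.13 in PDGFRα+SCA1- cells against DCs, and from 0.12 to 0 in EM organoids against DCs. The medians of the 32 genes were then -1.93, -2.00 and -0.60. Homeostasis genes under the worth of 3 reads in some samples (10 of 32, such as Lss, Tm7sf2 and Stard4) have differences that depend on the pseudocount.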
